A study of Mus musculus with 8 samples.

Results

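The cells described here were dividing myeloid cells of mouse MC38 tumors, a transplanted colon carcinoma. They were chosen by their own transcripts: a droplet barcode was kept with at least 500 unique molecular identifiers (UMIs, counted RNA molecules) from at least 200 genes, at most 25% of them mitochondrial, and at least 20 hashtag UMIs. It had to hold at least 3 UMIs of Mki67, Top2a and Birc5 together, with Tyrobp and Fcer1g, 2 signalling adaptors of myeloid and natural killer cells, at 0.1% or more of its UMIs, and at most 1 UMI of 6 lymphocyte genes (Ncr1, Klrb1c, Klre1, Cd3e, Cd3d and Cd3g). This left 294 cells out of 11678 tumor myeloid cells, 13262 hashtag-bearing tumor cells and 32121 such cells of tumor and blood in all. The other 11384 tumor myeloid cells, with 0 to 2 UMIs of the 3 genes, are called non-cycling. Because measured UMIs of these cells chose them, their levels of the 3 genes and of everything that differs from non-cycling cells are given as descriptions.

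The study asked how local radiation changes myeloid cells and what the m6A reader YTHDF2 does in them. CD45+CD11b+Ly6Chi cells were sorted from MC38 tumors of C57BL/6J mice, male and female, 8 to 10 weeks old, either untreated (control) or 3 days after a single dose of 20 Gy ionizing radiation (IR). Both genotypes carried floxed Ythdf2: wild-type mice (WT) were Ythdf2 fl/fl, and conditional knockout mice (cKO) were Lyz Cre+;Ythdf2 fl/fl, in which Cre is made in monocytes, macrophages and granulocytes and the deletion is therefore not limited to 1 myeloid type. Cells of 5 mice were pooled per genotype and treatment, stained with antibodies to CD45 and MHC class I that carried the hashtag B0301 (WT) or B0302 (cKO), and the genotypes were then loaded together, so that each treatment was 1 library. A cell was called WT where B0301 was at least as high as B0302 and cKO where B0302 was at least 4 times B0301. Of the members, 270 had a genotype and 24 had neither. Each of the 4 groups is thus 1 pool of mice without replicates, no test between groups was possible, and treatment cannot be told apart from library.

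A cell that divides copies its DNA in S phase and separates it in mitosis after G2. E2F factors switch on the genes of DNA synthesis as the cell leaves G1, and the MuvB-based complexes, with B-MYB and FOXM1, switch on the mitotic genes later, through CCAAT boxes bound by NF-Y and the cell cycle genes homology region (CHR). Blood monocytes rarely divide, whereas tissue and tumor macrophages can renew themselves by local division. Of the 3 genes used in the rule, Mki67 encodes the Ki-67 protein that coats mitotic chromosomes, Top2a encodes the topoisomerase that untangles replicated DNA, and Birc5 encodes survivin, a subunit of the chromosomal passenger complex.

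The promoter windows of the 3 rule genes, of Pcna (the sliding clamp of DNA polymerase, an S phase gene) and of Hmgb2 (a chromatin protein and the G2/M gene with the most UMIs in the members) are shown to give the letters of these promoters at the CCAAT boxes and CHR described above, whether or not a window holds them. Each runs from 250 bases before the annotated start to 50 bases after it, 5′ to 3′ on the gene's own strand, as RefSeq gives it on GRCm38.p6. Capitals mark CCAAT boxes (CCAAT or its reverse ATTGG) and CHR letters (TTTGAA or TTCAAA); the E2F letters TTTCCCGC and TTTGGCGC, searched on both strands, were in none of the 5. In these windows no match overlapped another. The windows lie at chr7:135716330-135716629 on the minus strand, chr11:99024140-99024439 on the minus strand, chr11:117848987-117849286 on the plus strand, chr2:132253131-132253430 on the minus strand and chr8:57511593-57511892 on the plus strand.
Mki67: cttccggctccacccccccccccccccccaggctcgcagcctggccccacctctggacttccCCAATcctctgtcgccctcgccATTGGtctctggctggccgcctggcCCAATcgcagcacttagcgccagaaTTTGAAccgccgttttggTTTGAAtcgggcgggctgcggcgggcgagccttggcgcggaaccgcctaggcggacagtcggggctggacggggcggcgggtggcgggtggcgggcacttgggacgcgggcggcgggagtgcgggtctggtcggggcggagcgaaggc
Top2a: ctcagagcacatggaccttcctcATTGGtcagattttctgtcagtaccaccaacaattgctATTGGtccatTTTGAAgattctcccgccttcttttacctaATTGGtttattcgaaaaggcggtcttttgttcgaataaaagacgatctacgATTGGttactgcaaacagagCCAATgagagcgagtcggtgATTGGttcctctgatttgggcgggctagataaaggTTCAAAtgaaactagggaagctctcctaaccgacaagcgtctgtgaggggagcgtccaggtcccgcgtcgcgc
Birc5: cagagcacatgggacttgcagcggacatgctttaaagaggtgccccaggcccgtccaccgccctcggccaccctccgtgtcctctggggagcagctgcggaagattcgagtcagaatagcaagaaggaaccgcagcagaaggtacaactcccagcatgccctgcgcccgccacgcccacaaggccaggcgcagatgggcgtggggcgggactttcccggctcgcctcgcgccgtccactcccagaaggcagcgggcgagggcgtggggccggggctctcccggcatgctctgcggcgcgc
Pcna: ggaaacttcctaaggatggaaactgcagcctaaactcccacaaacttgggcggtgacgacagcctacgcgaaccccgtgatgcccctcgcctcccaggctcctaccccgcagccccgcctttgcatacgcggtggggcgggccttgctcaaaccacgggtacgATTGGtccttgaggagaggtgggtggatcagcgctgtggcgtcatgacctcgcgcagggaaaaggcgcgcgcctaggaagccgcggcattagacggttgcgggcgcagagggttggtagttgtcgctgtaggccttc
Hmgb2: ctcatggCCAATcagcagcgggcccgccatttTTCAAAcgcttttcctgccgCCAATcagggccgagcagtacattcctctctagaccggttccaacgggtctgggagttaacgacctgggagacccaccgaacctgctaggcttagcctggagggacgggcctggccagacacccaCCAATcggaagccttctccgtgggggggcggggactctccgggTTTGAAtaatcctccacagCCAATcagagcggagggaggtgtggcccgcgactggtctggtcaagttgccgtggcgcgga
The Mki67 window held 3 CCAAT boxes and 2 CHR matches, Top2a 6 and 2, Hmgb2 4 and 2, Pcna 1 and 0, and Birc5 0 of either. CCAAT boxes were in 37.4% of all 32851 promoter windows, in 64.9% of the 37 windows of the S phase list and in 78.9% of the 57 windows of the G2/M list. CHR letters were in 17.9% of all windows, 16.2% of the S phase windows and 70.2% of the G2/M windows, and the E2F letters in 1.56%, 24.3% and 3.51%. The macrophage list had 33.3%, 19% and 4.76% of its 21 windows with the 3 motifs in the same order, and the interferon response list 38.9%, 27.8% and 2.78% of its 36. Windows were found for 33 of 44 S phase genes and 52 of 62 G2/M genes, and a match is a description of letters, not of binding.

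The members carried the transcripts of macrophages and monocytes. In the control library, Ptprc (the leukocyte antigen CD45) was at 335 CPM (a gene's UMIs scaled to a common total of UMIs) in the 256 members, Csf1r (the receptor for the macrophage growth factor CSF1) at 376 CPM and Ctss (a lysosomal protease) at 2210 CPM, detected in 94.1%, 93.4% and 98.8% of the cells. Itgam, which encodes the sorted antigen CD11b, was detected in 91.8% of them. Ly6c2, a gene of the Ly6C antigen used as the sort gate, was at 70.5 CPM in these members and detected in 27.3% of them, against 416 CPM and 48.6% in the non-cycling cells of the same library; in the 38 irradiated members it was at 557 CPM and in 68.4% of cells. Ptprc, Csf1r and Ctss were at 524, 391 and 2538 CPM in the non-cycling control cells. In the irradiated members they were at 418, 264 and 2190 CPM, detected in 89.5%, 68.4% and 92.1% of the cells. A list of 18 dendritic cell genes summed to 2568 CPM (WT) and 3008 (cKO) in irradiated members, against 932 and 704 in control ones. Its largest values in 1 irradiated cell were 24672 and 15653 CPM. Tyrobp and Fcer1g together made up a median of 0.349% of UMIs in the control members and 0.517% in the non-cycling cells, and 0.425% against 0.595% in the irradiated library. The barcodes with 3 or more UMIs of the 3 genes that fell under 0.1% were of another kind. The 183 of them in the control library had a median of 38332 UMIs per cell, Ptprc at 12.8 CPM, Csf1r at 6.56 CPM and the fibrillar collagen gene Col3a1 at 370 CPM, against 23.7 CPM of Col3a1 in the members; the irradiated library held 67 such barcodes.

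The targeted gene was read first. Ythdf2 was at 102 CPM in control WT, 697 in control cKO, 33.1 in irradiated WT and 422 in irradiated cKO members. The level was higher in cells labelled cKO, against what a lost transcript would give. Reads of this assay come from the 3′ end of a transcript, and where the floxed part lies relative to it is not given in the sources used here, so Ythdf2 does not check the labels. Lyz2, the locus that holds the Cre, was at 5726 CPM in control WT and 4109 in irradiated WT members, but at 234 and 240 CPM in the corresponding cKO members, while Lyz1, its near-identical neighbor, went from 1.23 CPM in control WT to 353 in control cKO members. Pooled Lyz2 separated the labels, although 1 cell held 69.2% of the Lyz2 UMIs of control cKO and 85.4% of those of irradiated cKO members. Single cells were less clear. Under 1000 CPM of Lyz2 were 7 of 49 control WT and 4 of 16 irradiated WT members, against 187 of 190 and 14 of 15 in cKO. The split of reads between the 2 lysozyme genes is uncertain. Ythdf2 lies at chr4:132184912-132212303, Lyz2 at chr10:117277331-117282321 and Lyz1 at chr10:117287797-117292868 (mm10).

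The libraries held 87703837 gene UMIs (tumor control) and 81601307 (tumor IR). Barcodes were shared between the 2 tumor matrices: control cells had about 45 UMIs in the irradiated matrix for each 100 in their own, and irradiated cells about 59 in the control matrix. Few members carried hashtags in both, and a cell was taken to belong to the library in which it carried them. Of the 256 control members 10, and of the 38 irradiated members 5, had 20 or more hashtag UMIs in both libraries. Of the irradiated members 4 had more gene UMIs in the control matrix than in their own, 1 of them WT and 3 of neither genotype, and the WT one supplied 11.5% of the UMIs of the irradiated WT pool. That WT cell had 20777 gene UMIs and 447 hashtag UMIs in the irradiated library against 28082 and 1008 in the control library; it is counted as irradiated here, as the rule asks only for 20 hashtag UMIs in a library, and values without the barcodes tagged in both are given beside the list medians of irradiated members. Whether the shared UMIs are the same molecules cannot be told from counts.

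The 3 rule genes were not equally filled in the 4 groups. In control WT members the 3 genes summed to between 3 and 87 UMIs per cell, with a median of 6. In control cKO members the range was 3 to 54 with a median of 8. In irradiated WT members it was 3 to 56 with a median of 4.5, and in irradiated cKO members 3 to 10 with a median of 5. The ranges overlapped, but 8 or more UMIs were found in 44.9% of control WT, 51.6% of control cKO and 37.5% of irradiated WT members and in 6.67% (1 cell) of irradiated cKO members. Mki67 was detected in 87.8%, 94.2%, 87.5% and 93.3% of the members in that order of groups, Top2a in 67.3%, 60.5%, 68.8% and 53.3%, and Birc5 in 71.4%, 74.7%, 43.8% and 33.3%. Mki67 was the gene detected in the largest share of members in every group. At the edge of the rule, the control cKO pool held 70 cells with 2 UMIs and 28 with 3, with median S phase sums of 632 and 713 CPM and median G2/M sums of 945 and 1122 CPM. The irradiated cKO pool held 15 cells with 2 UMIs and 5 with 3.

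**Figure D1:**
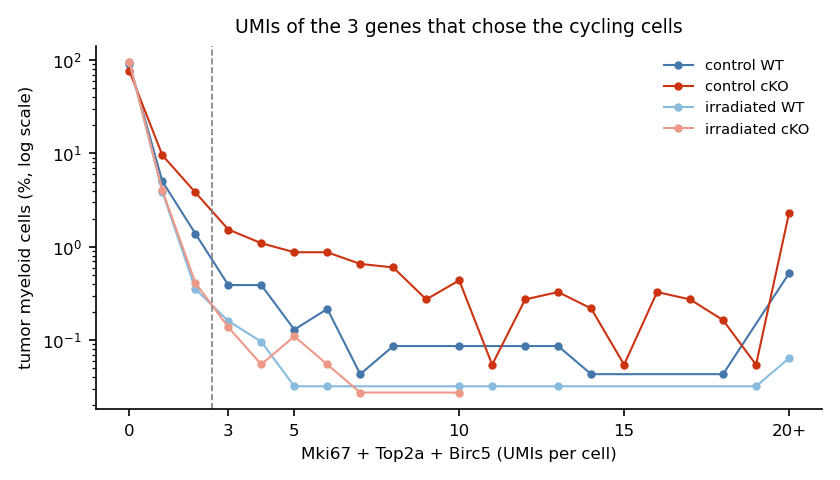
Share of tumor myeloid cells (percent, log scale) against the UMIs of Mki67, Top2a and Birc5 together in a cell, for the 4 groups, with cells of 20 or more UMIs at the last point and values of 0 not drawn. The dashed line marks the rule's limit; to its right the control cKO line is highest, and the irradiated cKO line ends at 10 UMIs.

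Cycling cells were most frequent in control cKO tumors and rare in irradiated tumors of both genotypes. In control WT tumors 49 of 2312 myeloid cells were cycling, 2.12% (95% exact Clopper-Pearson interval 1.57 to 2.79). In control cKO tumors 190 of 1830 were, 10.4% (9.02 to 11.9). After IR the shares were 0.513% in WT (16 of 3117, 0.294 to 0.832) and 0.412% in cKO (15 of 3638, 0.231 to 0.679). The intervals of the control groups overlapped neither each other nor those of the irradiated groups, and the irradiated groups overlapped each other. All intervals here and in what follows cover counting error only, not the spread between mice, which these pools cannot give.

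The difference between irradiated and control tumors was -1.61 percentage points in WT (Newcombe interval -2.31 to -1), a 4.13-fold lower share, and -9.97 points in cKO (-11.5 to -8.63), 25.2-fold lower. The cKO share exceeded the WT share by 8.26 points in control tumors (6.79 to 9.83), 4.9-fold, and differed from it by -0.101 points in irradiated tumors (-0.459 to 0.231). Requiring the 4 times hashtag margin for WT too gave 3.72% in control WT, and a cKO minus WT difference of 6.67 points. Raising the Tyrobp and Fcer1g limit to 0.5% lowered the shares to 0.597%, 3.84%, 0.138% and 0.219% for control WT, control cKO, irradiated WT and irradiated cKO; 42 of the 256 control members reached that limit. Doublet scores and hashtags also moved with cycling: 16.3%, 7.89%, 12.5% and 26.7% of the members in that order had a Scrublet score among the top 6% of their library, against 5.39%, 4.76%, 6.32% and 4.11% of the non-cycling cells, and their part in the shares was not tested beyond leaving those cells out, which changed no share by more than its interval.

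**Figure D2:**
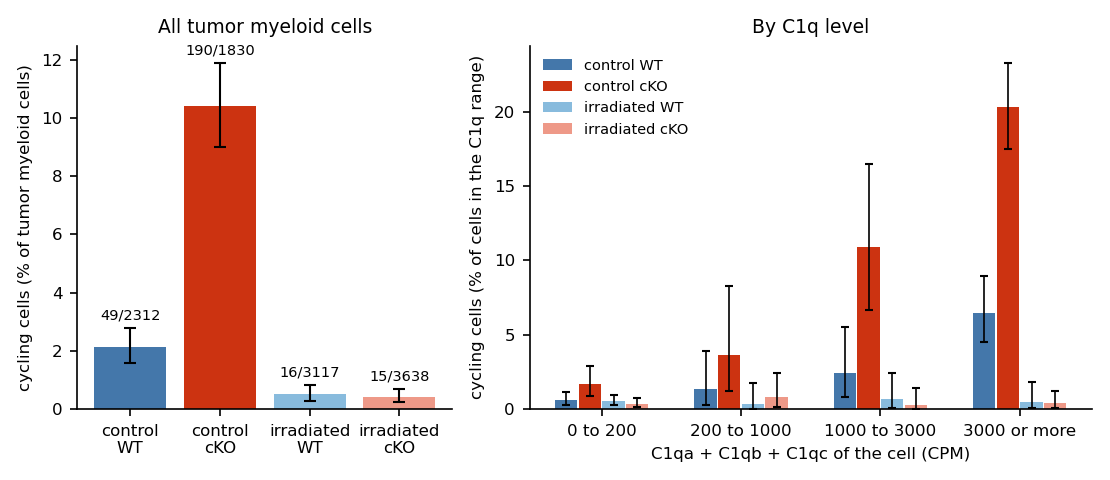
Left, cycling cells as percent of tumor myeloid cells in each group, with counts above the bars; right, the same within 4 ranges of the summed C1qa, C1qb and C1qc level of the cell (CPM). Bars are shares and error bars 95% exact intervals of counting error; control cKO is highest in every range, with 20.3% in cells at 3000 CPM or more.

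The dividing cells of control tumors were largely complement-expressing macrophages. C1qa, C1qb and C1qc encode the 3 chains of complement C1q, which tumor macrophages make and monocytes do not. Of the control members, 67.3% in WT and 80.5% in cKO had a C1q sum of 3000 CPM or more, against 22% and 41.2% of all myeloid cells of those groups. Of the irradiated members, 12.5% (2 cells) in WT and 20% (3 cells) in cKO did, and 68.8% and 53.3% had under 200 CPM. C1q-high cells were also a larger part of the control cKO myeloid cells than of the control WT ones, so the shares were set beside each other at equal C1q. Among C1q-high cells, 33 of 509 were cycling in control WT (6.48%, 4.5 to 8.98) and 153 of 754 in control cKO (20.3%, 17.5 to 23.3), a difference of 13.8 points (10.1 to 17.3). After IR 2 of 393 (0.509%) and 3 of 706 (0.425%) were, differences of -5.97 points in WT (-8.48 to -3.71) and -19.9 points in cKO (-22.9 to -17) from control. Among cells under 200 CPM the shares were 0.582%, 1.7%, 0.519% and 0.367% for control WT, control cKO, irradiated WT and irradiated cKO.

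Depth moved with cycling, and the order of the control groups was the same at equal depth. Members had a median of 15701 UMIs per cell in control WT, 13620 in control cKO, 8621 in irradiated WT and 9429 in irradiated cKO, against 6767, 7840, 6171 and 6357 in the non-cycling cells. With each cell thinned to 2000 UMIs, and 162, 109, 381 and 401 shallower cells left out, 3 or more UMIs of the 3 genes remained in 0.651%, 2.73%, 0.183% and 0.0309% of cells (the last is 1 cell), and 1 or more in 3.16%, 11.3%, 1.57% and 1.79%. Free RNA was read from cells marked as neutrophils (S100a8 and S100a9 at 2% or more of UMIs), which do not divide once mature. Of these, 0 of 38 in the control library (exact upper limit 9.25%; 3 counts, the floor used here for a count of 0, would be 7.89%) and 5 of 358 in the irradiated library (1.4%) held a UMI of the 3 genes and none held 3, at median depths of 1932 and 1997 UMIs.

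The same order of control groups appeared in genes the rule did not use. The 44 genes of the S phase list summed to 3000 CPM or more in 1.08% of all control WT myeloid cells (0.701 to 1.59), 5.46% of control cKO (4.47 to 6.61), 0.257% of irradiated WT (0.111 to 0.505) and 0.302% of irradiated cKO (0.151 to 0.54). These intervals separate the same groups as the shares of cycling cells do. The list and the rule are measured in the same cells, and 32 of the 100 S-high control cKO cells were not members.

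The 3 rule genes were also read a second time in the same barcodes. Counted in the matrix of the other tumor library, with genotype and treatment still taken from their own, the cycling shares were 1.14%, 7.02%, 0.202% and 0.201% in the same order of groups, and 50%, 61.7%, 42.9% and 30.8% of the members again had 3 or more UMIs there, against 0.0931%, 0.458%, 0% and 0.0865% of the non-cycling cells. These are the same genes that chose the members, and the UMIs may be the same molecules, so the values are a description only.

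S phase and mitotic genes were read in each member. The S phase sum per cell ran from 198 to 7815 CPM with a median of 1738 in control WT members, and from 74.2 to 9103 with a median of 1486 in control cKO. It ran from 158 to 3501 with a median of 1325 in irradiated WT and from 0 to 5770 with a median of 862 in irradiated cKO. The G2/M sum had medians of 3065, 4189, 3693 and 2326 CPM in the same order, and every range overlapped every other. Limits were set at the 95th percentile of the non-cycling cells, 1116 CPM for S phase and 1826 CPM for G2/M. Of the 270 members, 136 were above both, 57 above the G2/M limit only, 20 above the S phase limit only and 57 above neither. The last class depended on how firmly a cell met the rule: it held 37 of the 81 members with 3 or 4 UMIs, 15 of the 62 with 5 to 7 and 5 of the 127 with 8 or more. Above neither limit were 20.4% of control WT, 19.5% of control cKO, 37.5% of irradiated WT and 26.7% of irradiated cKO members, the irradiated ones being 6 and 4 cells.

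**Figure D3:**
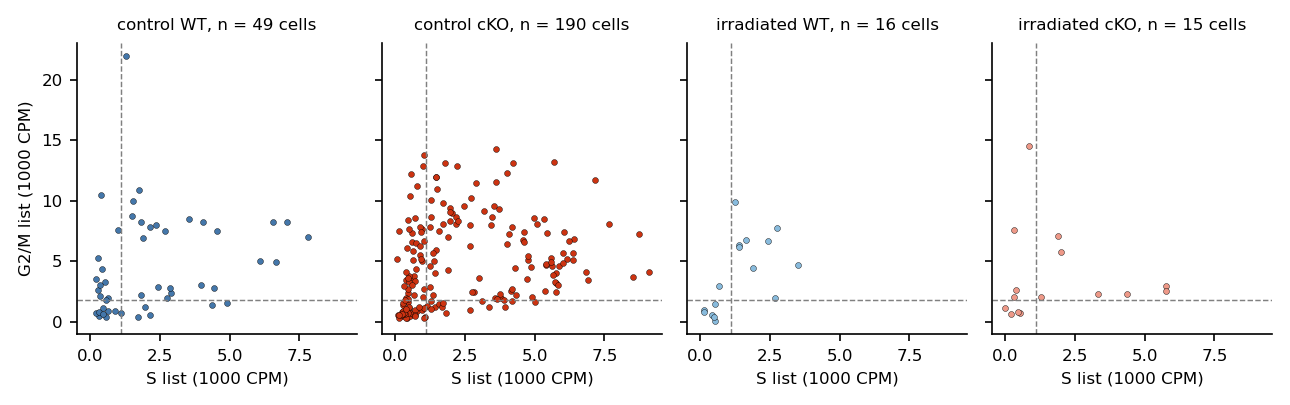
Summed G2/M list against summed S phase list (both in 1000 CPM) of each member, 1 panel per group with its number of cells; dashed lines are the 95th percentiles of non-cycling cells. Most members lie above both lines or above the G2/M line, and the 2 irradiated panels hold 16 and 15 cells.

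Cycling and non-cycling cells of the same pool were then compared over all genes. UMIs were summed over the cells of a pool, scaled to CPM and compared as a log2 ratio with 1 UMI, scaled to depth, added to both; a gene counted as past the limit at a log2 ratio of 1 (2-fold) in size with at least 100 UMIs in the 2 pools together. A gene that reaches 100 UMIs only through a high level in the cycling pool had to come out higher, so the counts for gene lists below also require 20 UMIs expected in the smaller, cycling pool if both pools had the gene at 1 level. Single genes named below include some under that minimum. At 100 UMIs, in control WT 586 of 8007 genes were higher in the cycling cells (7.32%) and 354 lower (4.42%); in control cKO 359 of 8114 were higher (4.42%) and 181 lower (2.23%). With 20 UMIs expected, 131 of 4391 were higher (2.98%) and 159 lower (3.62%) in control WT, so that the lower genes outnumbered the higher ones, and 306 of 7665 were higher (3.99%) and 157 lower (2.05%) in control cKO. The median log2 ratio of these genes was 0.03 in control WT and 0.10 in control cKO. In the irradiated pools, which were thin, 26 of 1361 were higher (1.91%) and 109 lower (8.01%) in WT, and 22 of 1305 higher (1.69%) and 113 lower (8.66%) in cKO. The split also depends on the scaling. With trimmed mean of M values (TMM) factors the share of higher among the genes past the limit over all genes with 100 UMIs went from 62.3% to 32.7% in control WT, from 66.5% to 52.9% in control cKO, from 44.1% to 26.4% in irradiated WT and from 40.7% to 25.7% in irradiated cKO, while the median log2 ratio of all genes went from 0.13 to -0.15, 0.11 to -0.05, 0.01 to -0.25 and 0.00 to -0.24.

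Replication genes were higher in the cycling cells. Of the 44 genes of the S phase list, 3 of the 5 that could be counted were higher in control WT (Pcna, Nasp and Usp1) and 29 of 30 in control cKO, none lower, with median log2 ratios of 1.27 and 2.11. Pcna was at 306 CPM in cycling and 103 in non-cycling cells of control WT, and at 329 and 110 in control cKO, log2 ratios of 1.57 (1.37 to 1.76) and 1.58 (1.46 to 1.70). Rrm1, the large subunit of ribonucleotide reductase, which makes deoxynucleotides, had log2 ratios of 3.42 and 3.12, and Dut, which keeps uracil out of DNA, 3.44 and 2.53. Slbp, which binds histone mRNA ends, was under the limit at 0.91 and 0.69. Of the nucleotide synthesis list 5 of 7 were higher in control WT and 10 of 21 in control cKO with medians of 1.03 and 0.95; the list includes Tyms (thymidylate synthase, 3.79 and 3.47) and Dtymk (thymidylate kinase, 1.98 and 1.53). Of the DNA damage response and repair list the 1 gene counted in control WT, Parp1, and 7 of 15 in control cKO were higher, among the latter H2afx, the histone marked at breaks (2.60), and Lig1, the ligase that joins Okazaki fragments (2.28).

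Mitotic genes were higher too. Of the 62 genes of the G2/M list, 5 of 8 were higher in control WT and 33 of 35 in control cKO, none lower, with medians of 1.12 and 3.67. Hmgb2 was at 875 against 223 CPM in control WT and 939 against 210 in control cKO, log2 ratios of 1.97 and 2.16. Smc2 and Smc4, the condensin subunits that compact chromosomes, had 4.15 and 2.24 in control WT and 3.61 and 2.25 in control cKO, and Cenpa, the histone H3 of centromeres, 1.70 and 2.52 in the 2 genotypes. Cdk1, the kinase of mitotic entry, was at 83.5 against 3.8 CPM in control WT and at 108 against 7.96 in control cKO, and its partner cyclin gene Ccnb2 at 71.2 against 1.75 and 93 against 3.7. Beside the rule genes, the leading genes were Pclaf (a PCNA-binding protein, 6.59), Cenpf (a kinetochore protein, 6.58) and Cdca3 (a trigger of mitotic entry, 6.15) in control WT, and Hmmr (a spindle protein, 6.99), Nusap1 (a microtubule binder, 6.53), Kif11 (the spindle motor Eg5, 6.40) and Ccna2 (cyclin A2, 5.92) in control cKO. The replication-dependent histone genes Hist1h2ap and Hist1h2ae were among them in both genotypes; members of this family are near-identical and their reads could be split between copies.

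Of the list of cyclins, CDKs and inhibitors, which holds genes that set the entry to the cycle, 1 of 11 was higher in control WT and 6 of 21 in control cKO, none lower, with medians of 0.33 and 0.67. Cdk4, the kinase of early G1, was at 1.27 and 0.92, and the D-type cyclin genes Ccnd1 and Ccnd2 at 0.49 and 0.50, and 0.08 and -0.12. Cdkn1a, which encodes the CDK inhibitor p21, was detected in 98% and 97.9% of the control members, at 915 and 994 CPM against 1082 and 1178 in the non-cycling cells. The p53 targets, of which Cdkn1a is one, had 0 of 10 genes past the limit in control WT and 1 of 17, Pmaip1, lower at -1.03, in control cKO. Chromatin and tubulin genes were higher in 10 of 17 and 17 of 22 (medians 1.21 and 1.45), Tubb5 (beta tubulin) by 2.08 and 1.97. Of the ribosome biogenesis list 1 of 15 and 0 of 23 were higher (medians 0.67 and 0.39), and of glycolysis and hypoxia 0 of 22 in either direction in both.

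Genes of monocytes and neutrophils were lower in the cycling cells. Of the monocyte list 8 of 13 genes were lower in control WT and 8 of 16 in control cKO, none higher (medians -1.11 and -0.80), with Plac8, a gene of inflammatory monocytes, at 303 against 1890 CPM and 117 against 1066 (log2 ratios of -2.64 and -3.18); Fn1 and Ccr2, of the same list, were within the limit. Of the neutrophil list 3 of 5 and 8 of 9 were lower, S100a8 by -3.86 and -2.96. Genes of basophils (Il4, Il13 and Mcpt8), of red cells (Hbb-bs and Hba-a2) and of dendritic cells (Cd209a) had 0 UMIs in the 190 control cKO members; Il4, at 35.7 CPM in the non-cycling cells, was at least 32.5-fold lower and Hbb-bs, at 57.9 CPM, at least 52.8-fold lower, taking 3 UMIs over the pool as the floor. The non-cycling cells therefore held cells of other kinds too. Macrophage genes were higher in 8 of 16 in control WT (median 0.96) and in 0 of 18 in control cKO (median 0.52): C1qa was at 2097 against 826 CPM and 3023 against 1562, Mrc1, the mannose receptor, at 586 against 198 and 716 against 394, and Csf1r at 343 against 371 and 390 against 414.

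Interferon response genes were lower in part in the cycling cells. Of 32 counted in control WT 14 were lower (median -0.84), and of 36 in control cKO 9 were (median -0.56), none higher in either, with Irf7, the amplifier of type I interferon, at -1.14 in both and Zbp1, a sensor of Z-form nucleic acid, at -1.59 and -1.07. In the irradiated pools 24 of 32 were lower in WT and 18 of 28 in cKO (medians -1.48 and -1.46), none higher, while 9 of 12 and 5 of 12 chromatin and tubulin genes were higher. The chemokine genes Cxcl9 and Cxcl10, induced by interferon, were at -0.73 and -0.97 in control WT but at 0.67 and 0.13 in control cKO, and the difference between genotypes was not tested. Il1b, which encodes interleukin-1 beta, was at 3420 against 7750 CPM in control WT (-1.18) and at 5265 against 10860 in control cKO (-1.04). Arg1, arginase 1, which depletes arginine, was at 2225 against 2091 and 3704 against 3673 CPM. The suppressive and angiogenic list had 5 of 14 lower in control WT and 4 of 18 in control cKO, none higher, and the MHC class II list 0 of 8 past the limit in both. Il10, which did not reach 20 expected UMIs in control WT, was at 106 against 13.8 CPM in control WT (2.93) and 31.5 against 24.5 in control cKO. Csf3r, the G-CSF receptor gene, was the 1 growth factor receptor gene past the limit, of 8 in control WT and 12 in control cKO, lower at -2.20 and -1.40. Of the myeloid transcription factors Maf was higher and Cebpb and Id3 lower of 17 in control WT, and 0 of 22 were past the limit in control cKO. The m6A readers, writers and erasers had 0 of 7 and 0 of 12 past the limit.

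Because the control members were mostly C1q-high, they were also set beside C1q-high non-cycling cells only. In control WT 121 of 5190 genes were higher (2.33%) and 95 lower (1.83%) at 100 UMIs, and 53 of 3640 (1.46%) and 50 (1.37%) with 20 UMIs expected; in control cKO 193 of 6695 were higher (2.88%) and 31 lower (0.463%), and all of those genes had 20 UMIs expected. With TMM factors the share of higher among genes past the limit went from 56% to 36.7% in control WT and from 86.2% to 80.6% in control cKO. With 20 UMIs expected, 3 of 4 S phase genes and 6 of 8 G2/M genes were higher in WT, and 26 of 29 and 32 of 34 in cKO (medians 1.77 and 3.07), none lower. The macrophage list, whose C1q genes chose these cells, had 0 of 17 past the limit in WT and 0 of 18 in cKO (medians -0.03 and -0.06), and the monocyte list 1 higher and 1 lower of 9 and of 11. Of the interferon response genes 6 of 23 were lower and none higher in WT (median -0.60) and 0 of 30 in cKO (median -0.09), where the summed list was higher at 0.34 (0.31 to 0.37), the opposite sign to its median. Ly6i, a gene of the Ly6 family, Slpi, a protease inhibitor of phagocytes, and the heat shock genes Hspa1a and Hspa1b were among the genes lower in C1q-high cycling WT cells, and Inhba, Slpi, Ly6i and Tnfrsf9 among those in cKO.

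**Figure D4:**
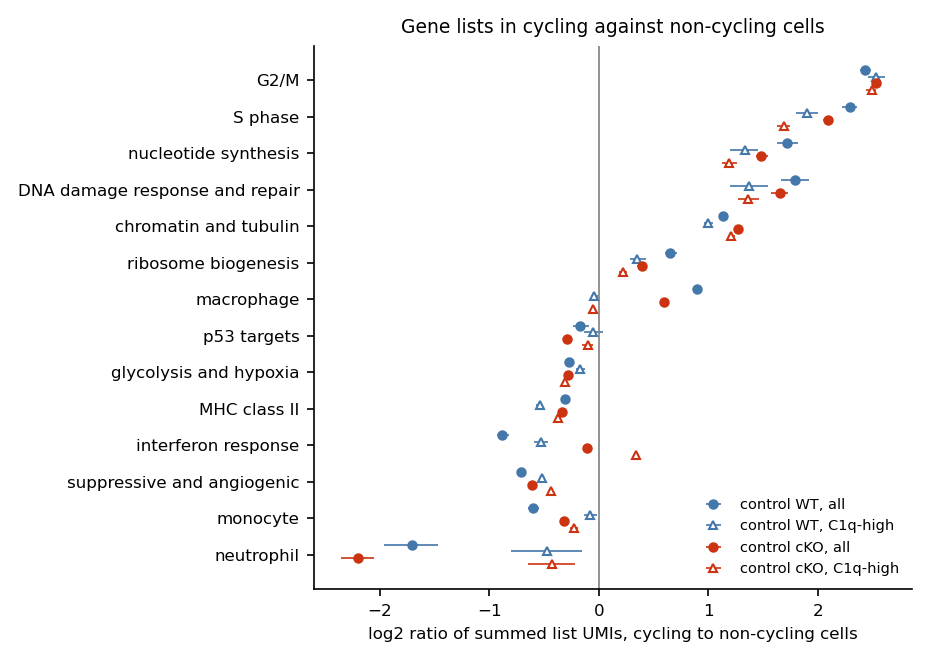
Log2 ratio of summed list UMIs, cycling to non-cycling cells (x axis), for 14 gene lists in control WT and control cKO (colors as in the key); filled circles are all myeloid cells, open triangles C1q-high cells only, and lines 95% intervals of counting error. The G2/M and S phase lists lie between 2.09 and 2.53 in all myeloid cells, and the macrophage list moves to about 0 in C1q-high cells.

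The few members of irradiated tumors were then set beside those of control tumors. In the irradiated members macrophage genes such as C1qa and Mrc1 were lower and Isg15, an interferon response gene, higher in both genotypes. At 100 UMIs, in WT 43 of 1527 genes were higher (2.82%) and 73 lower (4.78%); in cKO 137 of 3850 were higher (3.56%) and 403 lower (10.5%). The irradiated pools held 181072 and 170521 UMIs against 814042 and 2732135, and 1 cell supplied 18.3% of the irradiated WT and 13.8% of the irradiated cKO pool. With 20 UMIs expected in the smaller, irradiated pool, the minimum used for the list counts that follow, 35 of 1378 were higher (2.54%) and 64 lower (4.64%) in WT, and 36 of 1309 higher (2.75%) and 91 lower (6.95%) in cKO. For several genes 1 cell held most of the UMIs in an irradiated pool, and its share is given for some of them.

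Macrophage genes were lower in the irradiated members, 10 of 15 in WT (median -1.35, all genes -0.07) and 11 of 15 in cKO (median -1.31, all genes -0.08), with 1 higher in each, Fcgr1 in WT and Pf4 in cKO. C1qa was at 2097 CPM (1999 to 2199) in control WT and 547 (444 to 666) in irradiated WT members, and at 3023 (2958 to 3089) and 1220 (1060 to 1397) in cKO. It was detected in 39 of 49, 4 of 16, 177 of 190 and 7 of 15 cells of these 4 pools, and in the irradiated pools 1 cell held 53.5% (WT) and 59.1% (cKO) of its UMIs. On the log2 scale C1qa differed by -1.94 in WT (-2.25 to -1.65) and by -1.31 in cKO (-1.51 to -1.11), and C1qb and C1qc were at -1.85 and -1.85 in WT and -1.26 and -1.08 in cKO. Mrc1 was at 586 and 93.9 CPM in WT and at 716 and 117 in cKO, -2.62 and -2.60. Selenop, which encodes a secreted selenium carrier, was at -3.07 (-5.51 to -1.63, with 3 UMIs in irradiated WT) and -2.04. Adgre1, which encodes the macrophage antigen F4/80, was at -1.45 and -2.15. Cx3cr1, the fractalkine receptor gene, and Stab1, a scavenger receptor gene, were at -4.12 (-9.86 to -2.04) and -3.66 (-6.95 to -2.01) in WT. The irradiated WT members held 1 and 2 UMIs of them, so the size of these 2 ratios is uncertain. Fcrls, a macrophage and microglia gene, was at 0 in irradiated cKO against 224 CPM in control cKO members, at least 12.8-fold lower. Without the barcodes tagged in both libraries, and at 100 UMIs, where the medians were -1.35 and -1.37, they were -1.67 and -1.32.

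Some macrophage genes did not follow. Apoe, the lipid carrier, was at 3292 CPM in control and 2640 in irradiated WT members, where 1 cell held 81.2% of its UMIs, and at 2774 and 240 in cKO (-3.52). Pf4, a chemokine of platelets and macrophages, was at 994 and 121 CPM in WT (-3.01) but at 1222 and 2481 in cKO (1.02), with 73.3% of the irradiated cKO UMIs in 1 cell. Csf1r was at 343 and 249 CPM in WT and 390 and 287 in cKO, within the limit, and Fcgr1, the high-affinity IgG receptor gene, was higher in WT at 1.18. Non-cycling cells of the same libraries had C1qa at 826 CPM in control and 413 in irradiated WT and at 1562 and 620 in cKO, and log2 ratios of Mrc1 of -1.24 and -1.27 and of Apoe of -1.64 and -1.80 in the 2 genotypes, so lower macrophage genes after IR were not limited to the members; the difference between the 2 kinds of cell was not tested.

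Of the monocyte list 3 genes were higher and 1 lower of 8 in WT (median 0.06), and 1 higher and 1 lower of 6 in cKO (median -0.33). Ly6c2, which did not reach 20 expected UMIs in cKO, was at 125 and 834 CPM in WT (2.72, 2.36 to 3.11) and at 53.1 and 381 in cKO (2.83, 2.40 to 3.28), detected in 9 of 16 irradiated WT members, with 56.3% of its UMIs in 1 cell, and in 13 of 15 irradiated cKO members. Plac8 was at 303 and 1298 in WT and 117 and 1149 in cKO, 2.09 and 3.29. Ms4a4c, a monocyte membrane protein gene, was at 1.55 and, under the same minimum in cKO, 3.25. Chil3, a chitinase-like gene of the same list, was lower at -1.05 and -3.27. Ccr2, the receptor that draws monocytes out of marrow, was at 284 and 304 CPM in WT and 449 and 510 in cKO.

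Interferon response genes were higher in part, 5 of 11 in WT and 3 of 8 in cKO, with 2 lower in each and medians of 0.74 and 0.10. Irf7 was at 62.7 and 381 CPM in WT (2.57, 2.06 to 3.16) and 32.6 and 369 in cKO (3.48, 3.01 to 3.99), Isg15, a ubiquitin-like modifier, at 217 and 906 and at 232 and 874, and Bst2, the antiviral protein tetherin, at 327 and 762 and at 258 and 715. Isg15 was detected in 14 irradiated members of each genotype. Cxcl9 and Cxcl10 were lower, at -2.03 and -1.12 in WT and -1.15 and -2.43 in cKO, as was Gbp5, a guanylate-binding protein gene, in cKO (-1.95), whereas Cxcl10 in non-cycling cells was higher at 1.12 and 0.66. The WT median was 1.24 without the barcodes tagged in both libraries and 0.04 with members of 5 or more UMIs of the rule genes. In the non-cycling cells 29 of 39 genes of the list were higher and 1 lower in WT (median 1.68). In cKO 34 of 39 were higher and 0 lower (median 2.40). Higher interferon response genes after IR were therefore not limited to the members, and the difference between the 2 kinds of cell was not tested.

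**Figure D5:**
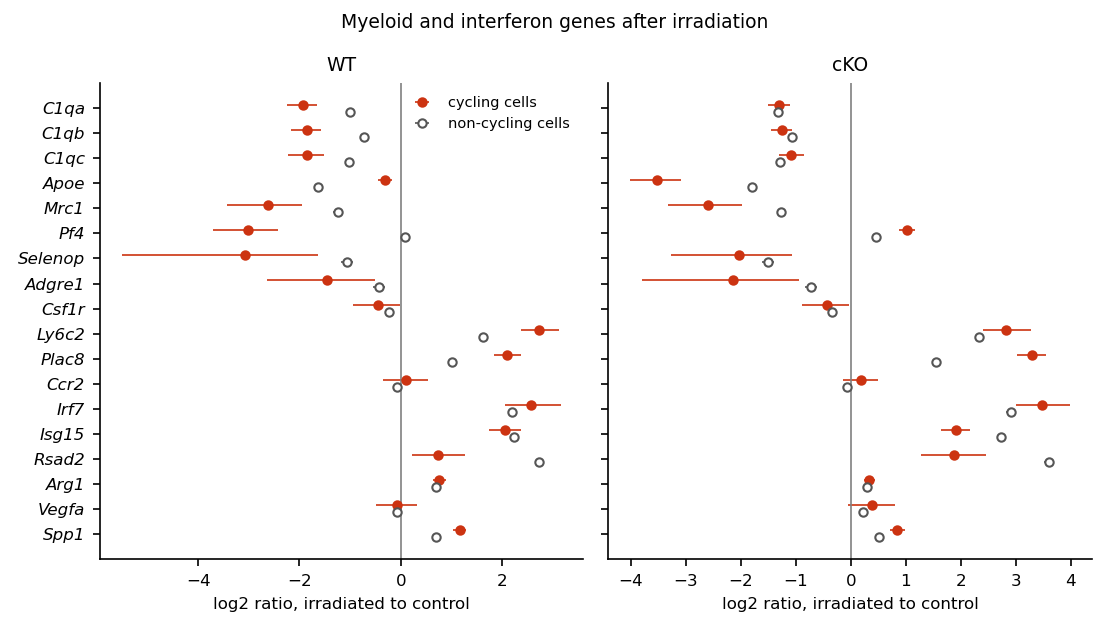
Log2 ratio of CPM, irradiated to control (x axis), for 18 macrophage, monocyte, interferon and suppressive genes in WT (left) and cKO (right); filled points are members, open points non-cycling cells, and lines 95% intervals of counting error. C1q genes, Mrc1 and Selenop lie left of 0 in both kinds of cell, Ly6c2, Plac8, Irf7 and Isg15 right of it, and Pf4 on opposite sides in WT and cKO members.

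Inhba, which encodes the activin A subunit, and Slpi were among the leading higher genes in both genotypes. Inhba was at 252 and 2093 CPM in WT (3.05, in 10 of 16 irradiated members) and at 168 and 1607 in cKO (3.25, in 9 of 15). Thbs1, thrombospondin 1, an inhibitor of vessel growth, was at 615 and 2761 CPM in WT (2.16) and 459 and 850 in cKO. Mmp12, the macrophage elastase, was higher at 1.74 and 2.68, with 77.4% and 68.5% of its irradiated UMIs in 1 cell, and Spp1, osteopontin, at 1.16 in WT and 0.85 in cKO. Arg1 was within the limit at 0.75 and 0.34, and of the suppressive and angiogenic list 4 of 12 genes were higher in WT and 2 of 11 in cKO, none lower. Leading genes that rested on 1 or 2 cells were Ccl22 in WT (98.9% of UMIs in 1 cell), Mmp13 in cKO (98.3%), Ccl17 in cKO (2 cells, 65.6%) and Procr in cKO (1 cell); Ccl17 and Ccl22 are chemokine genes of mature dendritic cells. The dendritic cell list had 2 of 3 genes higher in WT (Naaa and Bst2) and 2 of 3 in cKO (Ccl17 and Bst2), and 9 of its 18 genes had 10 or fewer UMIs in the members.

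Few S phase and G2/M genes could be counted between irradiated and control members. Of the G2/M list 0 of 9 were past the limit in WT and 2 of 9, Cks1b and Cdca3, lower in cKO (medians -0.14 and -0.50). Cdk1 was at 83.5 and 77.3 CPM in WT and at 108 and 17.6 in cKO, the last from 3 cells. Of the S phase list 1 of 4 was lower in WT (Dut, -1.42) and 1 of 4 in cKO (Rrm1, -1.29), with medians of -0.46 and -0.43. Of the chromatin and tubulin list 0 of 17 were past the limit in WT and 4 of 18 lower in cKO (medians -0.08 and -0.70). The summed S phase list was at -0.70 in WT (-0.90 to -0.51) and -0.27 in cKO (-0.42 to -0.12). G2/M summed to -0.17 (-0.28 to -0.05) and -0.67 (-0.81 to -0.55), and chromatin and tubulin to -0.11 and -0.67. In non-cycling cells these sums were -0.37, -0.05 and -0.34 in WT and -0.67, -0.05 and -0.36 in cKO. Cdkn1a was at 915 and 933 CPM in WT and 994 and 985 in cKO members, while in non-cycling cells it was higher by 0.51 and 0.40 on the log2 scale, and the p53 targets had 0 of 4 past the limit in both genotypes.

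Control cKO members differed from control WT members in few genes. Of 4413 genes 37 were higher in cKO (0.838%) and 25 lower (0.567%). The cycle lists had 1 gene past the limit: 1 of 31 S phase genes was higher, the DNA primase gene Prim1 (1.10), and 0 of 42 G2/M genes were past the limit, with medians of 0.25 and 0.02, and the 22 chromatin and tubulin genes had 0 past it. Within the limit, the summed S phase list was higher in cKO at 0.17 (0.10 to 0.24), with 23 of 31 genes above 0. Chromatin and tubulin summed to 0.17 (0.14 to 0.20), with 19 of 22 above 0, and G2/M to 0.06 (0.01 to 0.11), with 22 of 42. The macrophage list had 0 of 18 past the limit (median 0.20). Pcna was at 306 and 329 CPM in WT and cKO and Hmgb2 at 875 and 939. Control cKO tumors held a larger share of cycling cells. In those cells the counted genes of the S phase, G2/M and chromatin and tubulin lists other than Prim1 were within 2-fold of their WT levels. Hist1h4i, a histone gene outside these lists, was lower, at 54.1 CPM in WT and 23.8 in cKO (-1.17, -1.76 to -0.60).

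Beside Lyz1 (7.62), Lyz2 (-4.61) and Ythdf2 (2.77), the higher genes were led by Lif, a cytokine of the interleukin-6 family, at 4.91 CPM in WT and 38.1 in cKO, by Areg, the epidermal growth factor receptor ligand amphiregulin, at 50.4 and 278 (2.45, 2.01 to 2.96, in 8 of 49 and 51 of 190 cells, with 53.7% of the WT UMIs in 1 cell), by Chil3 at 173 and 797 (2.20) and by F3, tissue factor, at 14.7 and 58.6. The lower genes were led by Ifitm1, an antiviral membrane protein, at 399 CPM in WT and 66.2 in cKO (-2.58, -2.86 to -2.32), Ms4a4c at 157 and 35.9, Il10, the anti-inflammatory cytokine, at 106 and 31.5 (-1.73), Rsad2, the antiviral enzyme viperin, at 145 and 49, and Plac8 at 303 and 117. Of the Rsad2 UMIs of WT 67.8% came from 1 cell, and of Chil3 57.4%. Interferon response genes as a list were split, with 2 higher, Cxcl10 (1.21) and Gbp5 (1.29), and 1 lower of 17, Rsad2. The monocyte list was split as well, with Chil3 higher and Ly6c2 (-1.23), Plac8 and Ms4a4c lower of 10. Col3a1 and Sparc, genes of stromal cells, were at 55.3 and 66.3 CPM in WT and at 2.56 and 1.83 in cKO members; 93.3% and 68.5% of the WT UMIs came from 1 cell, and their part in the other differences was not tested.

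In irradiated members 551 genes could be compared between genotypes; 19 were higher in cKO (3.45%) and 16 lower (2.9%). Pf4 (4.29), Mmp13 (3.87), Ccl17 (2.31) and Ccl4, the chemokine MIP-1 beta (2.09, in 11 and 10 cells), led the higher genes. Lyz2 (-4.06), Apoe (-3.43), Egr1, an immediate early transcription factor (-2.46), and Nr4a2, an orphan nuclear receptor (-1.98, in 9 and 14 cells), led the lower ones. In the cKO pool 1 cell held 73.3% of Pf4, 98.3% of Mmp13 and 65.6% of Ccl17. In the WT pool 1 cell held 81.2% of Apoe and 66.3% of Egr1. For C1qa, C1qb and C1qc 1 cell held 59.1%, 56.4% and 66.5% in cKO and 53.5%, 61.5% and 60.3% in WT. Of 7 macrophage genes C1qa, C1qb, C1qc and Pf4 were higher (1.15, 1.25, 1.19 and 4.29) and Apoe lower, with a median of 1.15 that was 0.09 among members with 5 or more UMIs of the rule genes and 2.15 without the barcodes tagged in both libraries. No S phase gene had enough UMIs, and the 2 G2/M genes that did were within the limit. Of 10 chromatin and tubulin genes 1 was lower in cKO, and the list summed to -0.40 (-0.50 to -0.30). The rule gene Mki67 was at 503 CPM in WT and 217 in cKO members (-1.19, -1.80 to -0.65). Stmn1 was at 480 and 194 CPM (-1.29), with 40.2% of its WT UMIs in 1 cell.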

How the data were processed

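Per the file headers, the authors deposited raw UMI counts per feature and barcode, all barcodes included, made with Cell Ranger from 10x Genomics 3′ libraries on mouse mm10 with GENCODE vM23. The submitters' processing notes name Cell Ranger 6.0.1 and Seurat 4.0.6; the file headers name an earlier Cell Ranger. Each matrix held 32285 genes and 2 hashtags.

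Genes were compared at 100 UMIs in both pools together; the further minimum of 20 UMIs expected in the smaller pool, used for list counts between pools of unequal size, was chosen after seeing the data. Alternatives varied each limit of the rule, the scaling (TMM), the weight of cells, doublets, shared barcodes and depth. Cells were chosen and assigned to a genotype by the rule given above. UMIs were summed per pool and scaled to CPM with no other normalization, and each of the 4 tumor groups was 1 pool, so no test was run. Ratios had exact conditional binomial intervals, levels exact Poisson intervals and shares Clopper-Pearson or Newcombe intervals, at 95%. Scripts were tested on simulated data (Python 3.11.15, numpy 2.4.6, scipy 1.17.1, scanpy 1.11.5). Scrublet marked 3 and 0 barcodes at its own threshold and so did not work; no doublets were removed, and an alternative left out the 6% of barcodes with the highest scores. The 22 lists held 511 genes, 2 of them not found. Named were the rule genes, Ythdf2, Lyz1 and Lyz2, the 6 members of a list with the most UMIs, members alone in passing the limit, and the 10 genes with the largest ratio in each direction; others named (identity markers, further list members past the limit, and genes under the first 10) were chosen after their values were seen. The members and lists were chosen with earlier results of these data known. Gene positions came from GENCODE vM21.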

Additional observations from a re-analysis of the deposited data

Results flagged for a closer look

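The change with irradiation had opposite signs in tumor and blood under the same rule. The share of cycling cells differed by -1.61 points in WT tumors and by 0.509 points in WT blood, and by -9.97 points in cKO tumors and 1.17 points in cKO blood; the difference between tissues was not tested. The blood libraries held 4 cells of the rule without irradiation and 77 with it, among 9036 and 8957 cells passing the myeloid limit. They also held 6425 and 6502 cells marked as neutrophils, against 38 and 358 in the tumor libraries, so the shares of the 2 tissues have unlike denominators.

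In cKO against WT members, summed lists had opposite signs in control and irradiated tumors, with no test of the difference: G2/M 0.06 and -0.45, chromatin and tubulin 0.17 and -0.40, monocyte 0.27 and -0.18, dendritic cell -0.41 and 0.23, and myeloid transcription factors 0.13 and -0.15 on the log2 scale.

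Barcodes that met every other part of the rule but carried under 20 hashtag UMIs numbered 16 in the control and 155 in the irradiated tumor matrix. All were hashtag-bearing in the other tumor library, where 11 and 143 of them were members.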

How the results depend on the processing

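Each group was 1 pool, so replicates could not be left out. No paired analysis was possible because the labels give no replicate numbers and no result came from a test. No difference in shares whose interval left out 0, and no list median of 1 or more in size, changed sign. Shares for control WT, control cKO, irradiated WT and irradiated cKO were 2.12%, 10.4%, 0.513% and 0.412% as reported. They were 3.5%, 14.2%, 0.866% and 0.825% with 2 cycling UMIs, 1.34%, 7.76%, 0.257% and 0.22% with 5, 0.597%, 3.84%, 0.138% and 0.219% with Tyrobp and Fcer1g at 0.5%, 0.651%, 2.73%, 0.183% and 0.0309% thinned to 2000 UMIs, and, chosen after seeing the data, 1.14%, 7.02%, 0.202% and 0.201% read in the other tumor matrix; C1q-high cells gave 6.48% and 20.3% in control (also added later), and the 4 times margin 3.72% in control WT. The irradiated minus control difference in WT was -2.64 points with 2 UMIs, -0.459 at 0.5% Tyrobp and Fcer1g, -0.468 thinned, -0.937 in the other matrix, -5.97 in C1q-high cells and -3.05 with the margin. In cKO it was -13.4 with 2 UMIs, -7.54 with 5, -3.62 at 0.5%, -2.70 thinned, -6.82 in the other matrix and -19.9 in C1q-high cells. The control cKO minus WT difference was 10.7, 6.42, 3.24, 2.08, 5.88 and 13.8 in that order, and 6.67 with the margin.

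Counts of genes past the limit grew with a lower UMI minimum, which tests more genes. At 20 UMIs they were 873 (116 as reported) and 2067 (540) for irradiated against control WT and cKO, 492 (62) and 268 (35) for cKO against WT in control and irradiated members, and 2246 (940), 1287 (540), 4301 (2084) and 4651 (2405) for cycling against non-cycling cells of the 4 groups; at 1 UMI the first 4 were 3905, 5217, 2603 and 3048. Asking for 20 UMIs expected in the smaller pool, chosen after seeing the data, gave 127 for irradiated against control cKO and 290 (131 higher and 159 lower, against 586 and 354 as reported), 135 and 135 for cycling against non-cycling control WT, irradiated WT and irradiated cKO. The 4 times margin gave 75 for irradiated against control WT, the mean of per-cell CPM 100 for cKO against WT control, and 5 cycling UMIs 21 for cKO against WT irradiated. For the last 3 settings the cause was not tested. Of the headline results under an alternative, 61 moved and 107 did not. Of the list medians under an alternative 15 moved by 0.5 or more on the log2 scale and 581 by less. The MHC class II median of irradiated against control WT went from -0.63 to 0.05 with 5 cycling UMIs. Depth limits the irradiated pools of 16 and 15 cells, where single cells hold most UMIs of several genes.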

Other observations

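Cycling cells of blood were of another kind than those of control tumors. In irradiated blood 25 of 4713 WT cells (0.53%, 0.344 to 0.782) and 48 of 3852 cKO cells (1.25%, 0.92 to 1.65) met the rule, and in control blood 1 of 4728 and 3 of 3847. In irradiated blood these cells had a median C1q sum of 0 CPM in both genotypes. Ly6c2 and Plac8 alone, not the whole monocyte list, summed to medians of 4755 CPM in WT and 4996 CPM in cKO. Over all blood cells passing the myeloid limit these medians were 272 and 229 CPM. Most blood cells were neutrophils by S100a8 and S100a9, 6502 in the irradiated library, where 8957 cells passed the myeloid limit. These medians and the blood shares therefore have a mainly neutrophil background. The cycling cells of irradiated blood had a median depth of 15165 and 13560 UMIs against 2858 and 2848. Of the irradiated tumor members 68.8% in WT and 53.3% in cKO also had a C1q sum under 200 CPM.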
